A study of Mus musculus with 2 samples.

Results

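Cone photoreceptors of the mouse retina were looked for in single-cell RNA profiles at postnatal day 7 (P7). A barcode was counted as cone-gene-positive when it held at least 1000 UMIs (unique molecular identifiers, each counted as 1 RNA molecule), at least 500 genes and at most 15% mitochondrial UMIs. Its summed UMIs of Opn1sw, Arr3, Pde6h and Gnat2 also had to reach 20 per 10000 UMIs, with at least 2 of these 4 genes detected. The barcodes were thus chosen by the measured levels of these 4 genes. This gave 371 of 13480 kept barcodes in the Mettl14-cKO library and 445 of 11361 in the control library, 816 of 24841 in all. The Mettl14-cKO retinas were Mettl14 fl/fl;Chx10-Egfp/Cre. The controls were labelled Mettl14 fl/fl or fl/wt and age matched, so floxed alleles were present in both groups, and how many control animals were of each kind is not given. Chx10 is a gene of retinal progenitors, from which all retinal neurons including cones arise, and it is also expressed in bipolar cells. Each genotype was 1 library of dissociated whole retina, and the number of animals pooled is not given. Every difference below is therefore between 2 libraries, with no test and no p-value, and the 95% intervals cover counting error only.

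Cones are the photoreceptors of daylight and colour vision. An opsin absorbs light and activates the cone transducin (Gnat2, Gnb3, Gngt2), which turns on the phosphodiesterase Pde6c with its inhibitory subunit Pde6h, and the fall in cyclic GMP closes the channel Cnga3/Cngb3. Mouse cones can express a short-wavelength opsin, Opn1sw, a middle-wavelength opsin, Opn1mw, or both. Opn1sw comes on first in development, and Opn1mw follows after birth and requires the thyroid hormone receptor Thrb. Mettl14 is the partner of Mettl3 in the complex that writes N6-methyladenosine (m6A) on messenger RNA.

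The opsin promoters are shown because Opn1mw had the lowest ratio between the libraries in the cone cascade while Opn1sw lay near 1, as given below. Both are the 250 bases before the gene start in RefSeq (GRCm38.p6), written 5′ to 3′ on the gene's own strand, with capitals marking TAATC or AGGTCA on either strand. TAATC is the core bound by the photoreceptor homeobox factors Crx and Otx2, and AGGTCA is a half-site of nuclear receptors such as Thrb, Rxrg and Rorb. The Opn1sw window lies at chr6:29380514-29380763 (minus strand) and the Opn1mw window at chrX:74127216-74127465 (plus strand).
Opn1sw: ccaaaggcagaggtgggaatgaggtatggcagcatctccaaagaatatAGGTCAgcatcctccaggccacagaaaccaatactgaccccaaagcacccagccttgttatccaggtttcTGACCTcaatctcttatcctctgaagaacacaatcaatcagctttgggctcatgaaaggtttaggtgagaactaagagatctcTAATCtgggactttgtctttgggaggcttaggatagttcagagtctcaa
Opn1mw: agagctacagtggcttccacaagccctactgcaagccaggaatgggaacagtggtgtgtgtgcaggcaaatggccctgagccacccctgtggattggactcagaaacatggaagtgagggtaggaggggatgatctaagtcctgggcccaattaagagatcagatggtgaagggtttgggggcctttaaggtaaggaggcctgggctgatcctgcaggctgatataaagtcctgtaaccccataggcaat
In the Opn1sw window TAATC stood at -49 to -45 from the start, AGGTCA at -202 to -197 and its reverse complement TGACCT at -132 to -127, with no overlap among them. The Opn1mw window held none of these letters. Of 32851 promoter windows of the same length, 19.8% held TAATC and 14% held AGGTCA on either strand, so single matches are common, and a match is a description and not a site.

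The chosen barcodes carried cone genes, but most of them also carried rod genes at the level of rods. Kcne2, a potassium channel subunit of cones that the choice did not use, stood at 156 UMIs per 1000000 UMIs (CPM) in Mettl14-cKO and 139 in control. In rods it stood at 7.41 and 5.64 CPM, and it had 0 UMIs in amacrine cells of either library. Rods here are barcodes with 20 or more summed UMIs of 5 rod genes per 10000 (Nrl, Nr2e3, Cnga1 and Pde6b among them), at least 3 of these 5 detected, and no other class rule met. There were 3315 rods in Mettl14-cKO and 4571 in control. Of the cone-gene-positive barcodes, 301 (81.1%) in Mettl14-cKO and 416 (93.5%) in control also met the rod rule. Their median sum of the 5 rod genes was 57.0 per 10000 in Mettl14-cKO and 78.0 in control, against 71.9 and 94.6 in rods. The label of cone photoreceptors thus held for the cone genes and not for the absence of rod genes, and the barcodes are called cone-gene-positive here.

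They were also deeper than rods. The median was 8279 UMIs per cone-gene-positive barcode in Mettl14-cKO and 10321 in control, against 3115 and 2564 in rods. Their share of kept barcodes climbed with depth. Between 1000 and 4000 UMIs it was 0.696% in Mettl14-cKO and 0.705% in control, and at 16000 UMIs or more it was 23.8% and 30%. The doublet caller Scrublet marked 50 of the Mettl14-cKO barcodes (13.5%) and 34 of the control barcodes (7.64%), and marked 18.8% and 9.49% of rods. Marked barcodes stayed in unless stated. How far droplets with more than 1 cell or free rod RNA enter these barcodes was not tested. The libraries shared 39 kept barcode sequences, none of them cone-gene-positive in both.

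**Figure D1:**
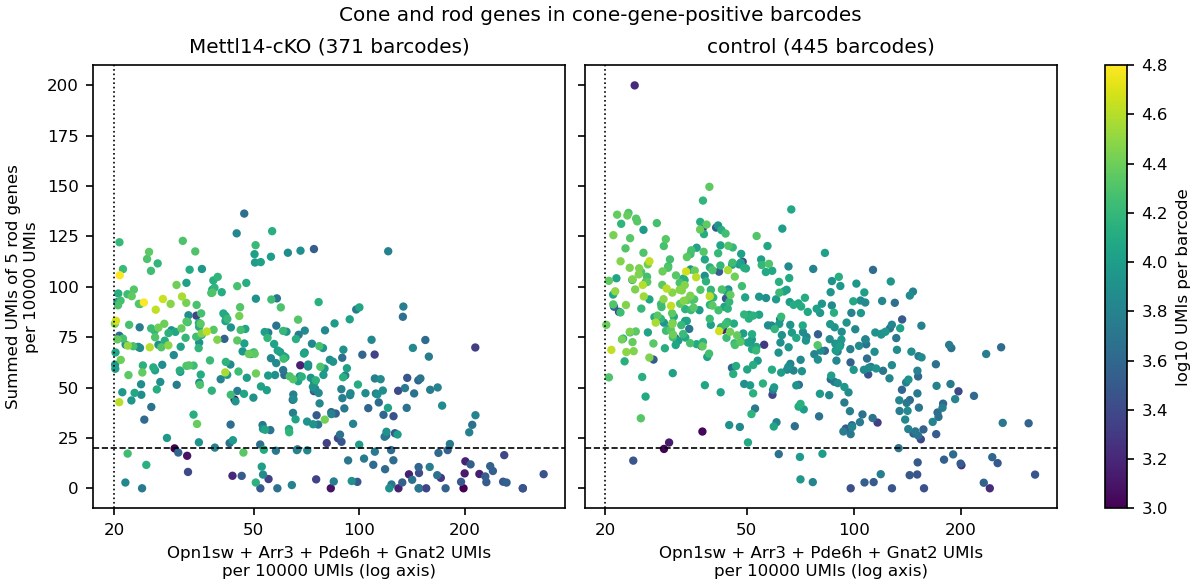
Each point is 1 cone-gene-positive barcode, with the summed cone genes per 10000 UMIs on a log x axis, the summed rod genes per 10000 UMIs on the y axis and log10 UMIs as colour, for Mettl14-cKO (left, 371 barcodes) and control (right, 445). The dotted line marks the choice threshold of 20 and the dashed line 20 rod-gene UMIs per 10000; the deepest barcodes stood at low cone-gene and high rod-gene sums, and 68 Mettl14-cKO and 26 control barcodes lay below the dashed line.

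Cone-gene content ordered the barcodes. Of the Mettl14-cKO barcodes, 124 held 20 to 40 cone-gene UMIs per 10000, 167 held 40 to 100 and 80 held 100 or more. Of the control barcodes, 152, 194 and 99 fell in these tiers. The median depth by tier was 15342, 8390 and 4220 UMIs in Mettl14-cKO, and 18767, 9927 and 5307 in control. The median rod-gene sum fell with the tier as well, to 23.8 per 10000 in Mettl14-cKO and 51.8 in control at 100 or more. The barcodes richest in cone genes were thus the shallowest and the lowest in rod genes in both libraries. Near the threshold, 37 Mettl14-cKO and 36 control barcodes lay just outside, at 15 to 20 per 10000, and 44 and 39 lay just inside, at 20 to 25.

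The genes of the choice are given as a description. Pde6h stood at 3182 CPM in Mettl14-cKO and 3401 in control, Opn1sw at 1345 and 1289, Gnat2 at 351 and 307, and Arr3, the cone arrestin that shuts off active opsin, at 293 and 213. All 4 were detected in 256 barcodes (69.0%) of Mettl14-cKO and 324 (72.8%) of control. In the tier of 100 or more, Opn1sw reached 4839 and 4318 CPM and Pde6h 8267 and 8738.

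Rod genes split by how they followed the tiers. The transcription factors that set rod fate fell as cone genes rose. Nrl stood at 966 CPM in Mettl14-cKO and 1167 in control at 20 to 40, and at 489 and 726 at 100 or more. Nr2e3, which represses cone genes in rods, stood at 3353 and 3169 in the lowest tier and at 1475 and 1790 in the highest. By contrast, the rod transducin gamma subunit Gngt1 did not fall this way in Mettl14-cKO. Neither did the rod arrestin Sag, which mouse cones are also known to express. At full depth Gngt1 had a UMI in 21.0% of Mettl14-cKO and 49.9% of control amacrine cells, and Sag in 23.4% and 48.4%. The source of the Gngt1 and Sag RNA in these barcodes was not tested. Gngt1 stood at 3506 CPM in Mettl14-cKO and 6466 in control in the lowest tier, and at 3903 and 6102 in the highest. Sag stood at 4024 and 6155 in the lowest and at 4578 and 5700 in the highest. Pde6g, the inhibitory subunit of the rod phosphodiesterase, was higher in the highest tier (5694 and 5514 CPM) than in rods (3920 and 3978).

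**Figure D2:**
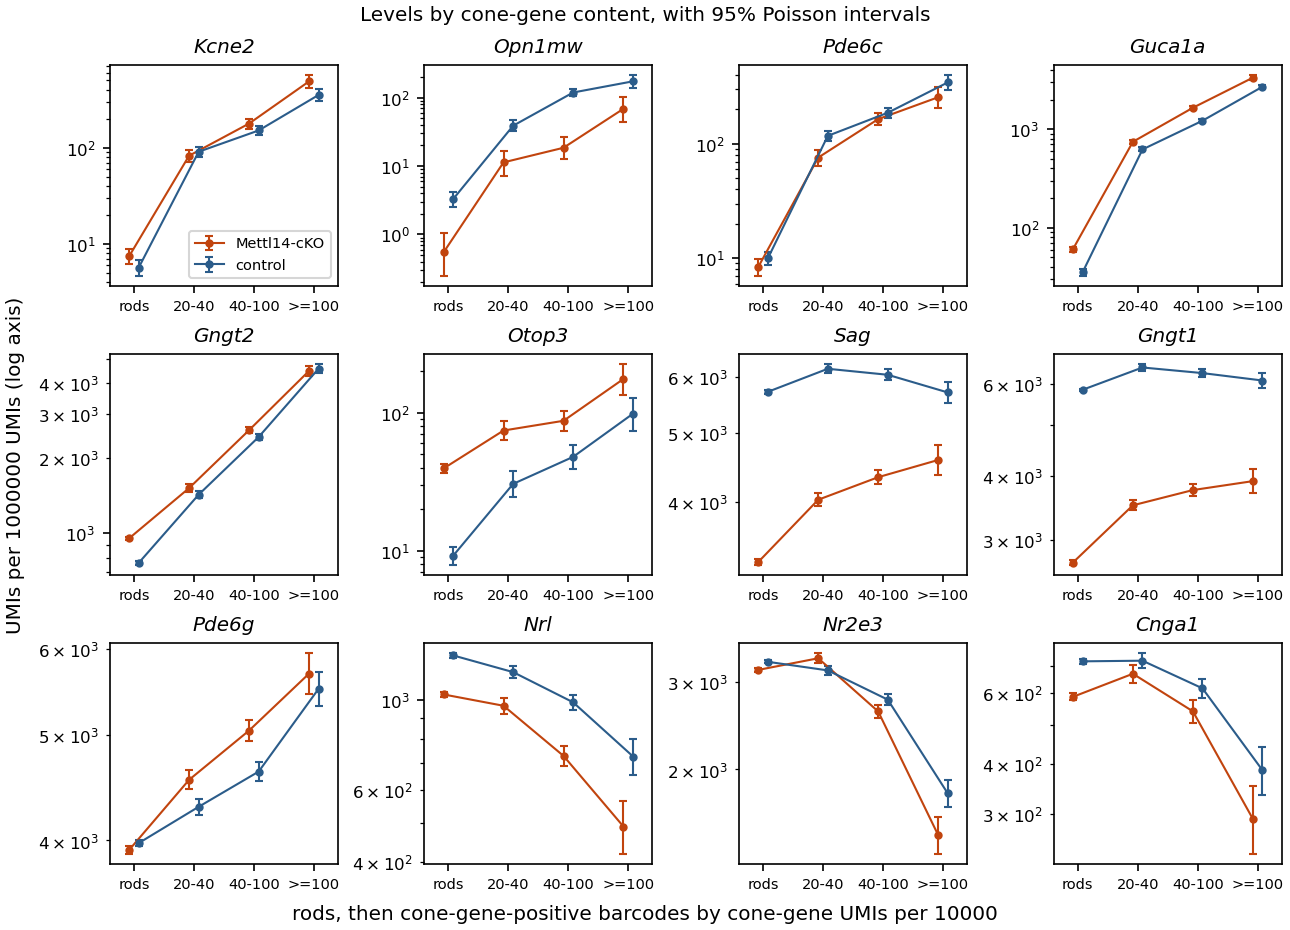
CPM (log y axis) of 12 genes in rods and in the 3 tiers of cone-gene content, for Mettl14-cKO and control, with exact 95% Poisson intervals. Kcne2, Opn1mw, Pde6c, Guca1a and Gngt2 climb from rods to the highest tier, and Opn1mw is lower in Mettl14-cKO in each tier. Nrl, Nr2e3 and Cnga1 are lower in the highest tier than in rods. Rods were chosen on these 3 genes among others, so that contrast with rods follows in part from the choice.

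Cone-gene-positive barcodes were less frequent in the Mettl14-cKO library. As a share of all depths together, they were 2.75% of kept barcodes in Mettl14-cKO (2.48 to 3.04, exact Clopper-Pearson) and 3.92% in control (3.57 to 4.29), a ratio of 0.703 (0.614 to 0.805). Rods were also a smaller share, 24.6% against 40.2%, and per 100 rods there were 11.2 cone-gene-positive barcodes in Mettl14-cKO and 9.74 in control. The ratio of shares was 0.688, 0.726 and 0.681 in the tiers of 20 to 40, 40 to 100 and 100 or more. By depth, the shares of both libraries were close below 8000 UMIs, with 3.51% in Mettl14-cKO (2.91 to 4.19) and 3.69% in control (3.06 to 4.41) from 4000 to 8000 UMIs. From 8000 to 16000 UMIs they were 10.9% (9.08 to 13.0) and 15.6% (13.5 to 18.0), and at 16000 or more 23.8% (19.4 to 28.7) and 30% (25.5 to 34.8). Among barcodes under 20 rod-gene UMIs per 10000 the order was turned round, with 68 (0.504%) in Mettl14-cKO and 26 (0.229%) in control, a ratio of 2.20 (1.40 to 3.46). This low-rod subset held 323214 UMIs in Mettl14-cKO and 106953 in control. Ratios of single genes in it thus rest on fewer UMIs than in all cone-gene-positive barcodes, and a marker at 0 limits its level less in control. It carried more amacrine, bipolar, Müller glia and ganglion cell marker RNA in both libraries. Its 9 ganglion cell markers summed to 371 CPM in Mettl14-cKO and 84.1 in control, against 69.3 and 36.7 in all cone-gene-positive barcodes, with 1 of 9 at 0 in Mettl14-cKO (Pou4f3) and 6 in control. Scrublet marked 29.4% of it in Mettl14-cKO and 15.4% in control. The subset is cut on rod genes, whose sum was itself lower in Mettl14-cKO, with a median of 71.9 per 10000 in Mettl14-cKO rods and 94.6 in control rods, so the line does not mark the same cells in both libraries. The part of these in the ratio was not tested.

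The targeted gene was lower, as in rods. Mettl14 (chromosome 3, 123368297 to 123386108, minus strand, GRCm38) had 77 UMIs in Mettl14-cKO and 206 in control, 18.7 against 37.1 CPM, a log2 ratio of -0.99 (-1.38 to -0.60). In rods it stood at 16.4 and 33.9 CPM. The position of the floxed exons is not given in the sources used here, and counting tags at the 3′ end can miss their loss.

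Over all genes with at least 30 UMIs, 1058 of 10762 were at least 1.5-fold higher in Mettl14-cKO with a ratio interval that excluded 1 (9.83%), and 866 were that much lower (8.05%). "Rose" and "fell" below mean these 2 conditions. The median log2 ratio of all genes was -0.06. Neither condition was met by 82.1% of all genes, so a list with most of its members in that state is like all genes. The gene lists below were chosen with earlier results of these data known, so an excess over all genes is a description only. Most of these differences were shared with rods: 760 of the higher genes were higher in rods too and 3 were lower there, and 551 of the lower genes were lower in rods and 1 was higher. Of the rest, 293 higher and 314 lower genes met neither condition in rods. In rods the same conditions held for 11.9% (higher) and 10.6% (lower) of 13198 genes. Of the cone-gene-positive barcodes, 81.1% in Mettl14-cKO and 93.5% in control also met the rod rule. Differences shared with rods were therefore not told apart from those of rod RNA.

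The middle-wavelength opsin had the lowest ratio in the cone cascade. Opn1mw (chromosome X, 74127464 to 74150760, plus strand) had 79 UMIs in Mettl14-cKO and 456 in control. That is 19.2 CPM (15.2 to 23.9) against 82.1 (74.7 to 90.0), a log2 ratio of -2.09 (-2.46 to -1.75). Opn1mw fell in each tier. It stood at 11.3 CPM in Mettl14-cKO and 38.8 in control at 20 to 40, at 18.5 and 118.7 at 40 to 100, and at 68.7 and 173 at 100 or more, where the log2 ratio was -1.33 (-2.03 to -0.68). In the low-rod subset it did not meet the conditions, with 22 UMIs in Mettl14-cKO and 12 in control and a log2 ratio of -0.72 (-1.80 to 0.43). Opn1sw, by contrast, had a log2 ratio of 0.06 (0.01 to 0.11), but it was used in the choice.

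Fewer Mettl14-cKO barcodes held Opn1mw, and among those that did the median was 1 UMI, against 3 in control. With every barcode thinned to 1500 UMIs, 14 of 360 Mettl14-cKO barcodes (3.89%; 2.14 to 6.44) and 41 of 441 control barcodes (9.30%; 6.75 to 12.4) had a UMI, after leaving out 11 and 4 shallower ones. Unthinned, the shares were 11.3% and 24.3%. Amacrine cells, which should lack the gene, had it in 0 of 718 and 0 of 501 thinned barcodes, and 3 counts of each total allow shares of barcodes with a UMI of up to 0.418% and 0.599%. On the thinned counts the log2 ratio was -1.73. The highest barcode held 8 Opn1mw UMIs in Mettl14-cKO and 21 in control, and 2 and 34 barcodes held 5 or more. Its UMIs were therefore spread over few barcodes, the 10 highest holding 49.4% in Mettl14-cKO and 32.9% in control.

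Opsin combinations are a description for Opn1sw, since its UMIs helped choose the barcodes and those of Opn1mw did not. At full depth, 80.6% of Mettl14-cKO and 70.6% of control barcodes had Opn1sw without Opn1mw, 10.8% and 22.9% had both, 0.539% and 1.35% had Opn1mw alone, and 8.09% and 5.17% had neither. Control barcodes were deeper. Thinned to 1500 UMIs, both opsins were seen in 2.78% of Mettl14-cKO barcodes (1.34 to 5.05) and 6.58% of control barcodes (4.45 to 9.31), and Opn1sw alone in 67.8% and 63.5%. The intervals of Opn1sw alone overlapped and those of both opsins overlapped at their ends.

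**Figure D3:**
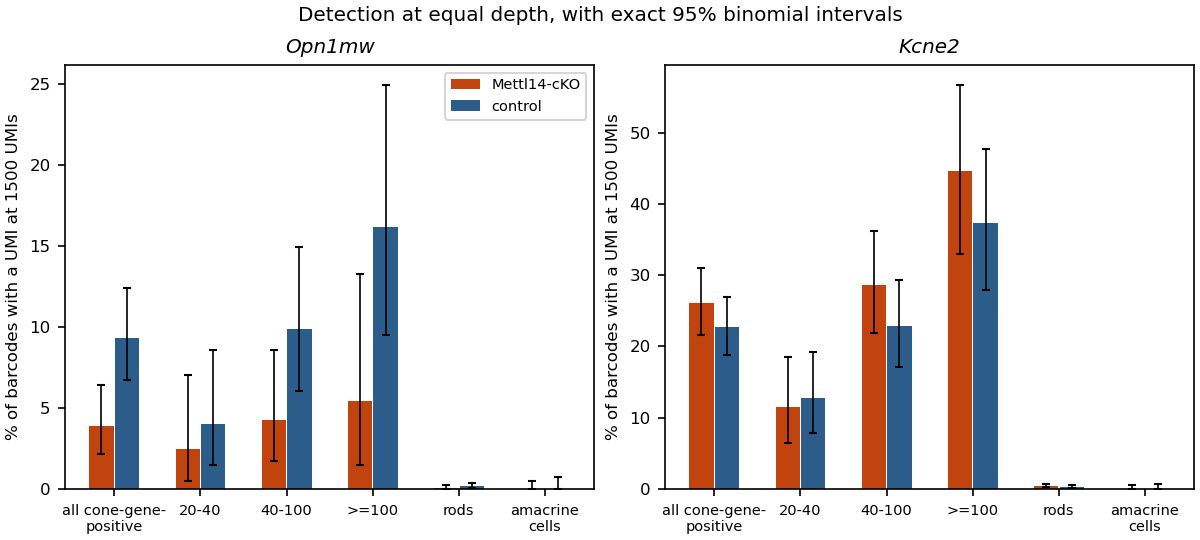
Share of barcodes (%) with at least 1 UMI of Opn1mw (left) and Kcne2 (right) after thinning each barcode to 1500 UMIs, in all cone-gene-positive barcodes, the 3 tiers, rods and amacrine cells, with exact 95% binomial intervals; Mettl14-cKO bars stand left of control bars. Opn1mw was seen in 3.89% of Mettl14-cKO and 9.30% of control barcodes, and Kcne2 in 26.1% and 22.7%.

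Outside the opsins, the cone cascade had 1 further gene past the threshold. Of its 17 measured members that the choice did not use, Guca1b rose, Opn1mw fell and 15 met neither condition, as did 82.1% of all genes. The median log2 ratio was -0.16, against -0.06 over all genes. In the low-rod subset none of 12 measured rose or fell, where 4.73% of 2640 genes rose and 3.26% fell. Guca1b encodes a calcium sensor that activates the guanylate cyclase which restores cyclic GMP (chromosome 17, 47385393 to 47392967, plus strand). It stood at 66.4 CPM in Mettl14-cKO and 34.0 in control, a log2 ratio of 0.97 (0.69 to 1.24). In rods Guca1b stood at 20.5 and 20.2 CPM, a log2 ratio of 0.03 (-0.19 to 0.24). Its difference widened with cone-gene content, from a log2 ratio of 0.57 at 20 to 40 to 1.15 at 40 to 100 and 1.64 (0.95 to 2.38) at 100 or more, where it stood at 151 and 48.4 CPM. The neighbouring Guca1a, its paralog on the opposite strand (47394558 to 47400584), stood at 1331 CPM in Mettl14-cKO and 1049 in control, a log2 ratio of 0.34. Whether the counting used strand is not given, so RNA running from one of these genes into the other was not told apart.

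The other cone cascade genes lay closer to 1. The cone phosphodiesterase Pde6c stood at 127 CPM in Mettl14-cKO and 166 in control (log2 -0.39; -0.55 to -0.23), and the photoreceptor guanylate cyclase Gucy2e at 118 and 148 (-0.32). Of the channel subunits, Cnga3 stood at 17.3 and 20.7 CPM (-0.26; -0.71 to 0.18) and Cngb3 at 134 and 107 (0.33). The transducin subunits Gnb3 and Gngt2 had log2 ratios of -0.03 and 0.06, with 995 against 1018 CPM and 2201 against 2112. Gngt2 overlaps Abi3 on the other strand. Recoverin (Rcvrn), a calcium sensor of rods and cones, stood at 2598 and 2374 CPM (0.13).

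**Figure D4:**
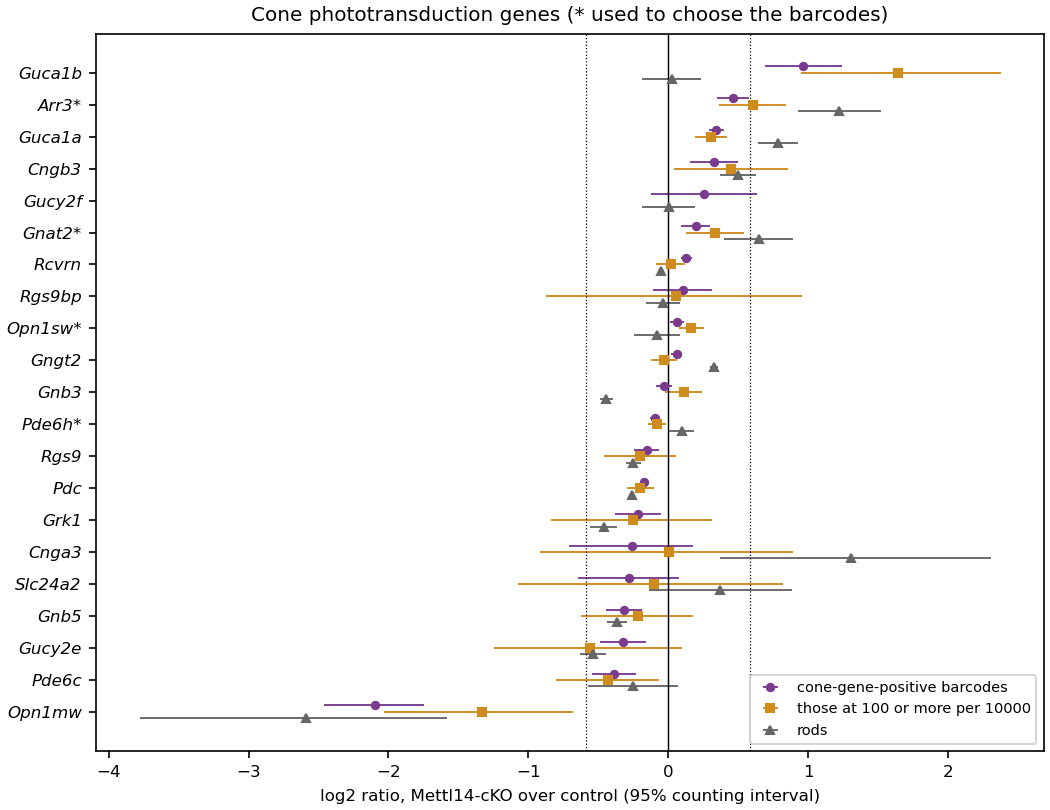
Log2 ratio of Mettl14-cKO over control (x axis) with its 95% counting interval for the cone phototransduction genes, in all cone-gene-positive barcodes, in those at 100 or more cone-gene UMIs per 10000, and in rods; dotted lines mark 1.5-fold and points with under 30 UMIs are not drawn. Opn1mw lies left of the lower line in all 3, and Guca1b lies right of the upper line in the cone-gene-positive barcodes and at 0.03 in rods.

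Most genes that separated these barcodes from rods met neither condition, and some rose or fell. A level at least 5-fold that of rods by the mean of both libraries, with 100 or more UMIs, was found for 42 genes, 38 of them outside the choice. Of the 38, 5 rose (13.2%, against 9.83% of all genes), 4 fell (10.5%, against 8.05%) and 29 met neither condition, with a median log2 ratio of -0.12. Those that rose were Socs3, a suppressor of cytokine signalling (0.97), Clca1 (0.79), the BMP pseudoreceptor Bambi (0.74), Moxd1 (0.66) and the vesicle GTPase Rab27b (0.63). Besides Opn1mw, Agr2 (-1.28), the neuronal pentraxin Nptx1 (-0.76) and Pgc (-0.73) fell. The 5-fold level was taken on the mean of both libraries, so a gene could enter through the library where it was higher. Nptx1 stood at 15.8 CPM in Mettl14-cKO and 26.8 in control, against 3.22 and 2.99 in rods, under 5-fold in Mettl14-cKO alone. The shares that rose and fell are therefore a description only. In the tier of 100 or more Socs3 rose (1.22), while Moxd1 (0.73), Rab27b (0.60), Clca1 (0.36) and Bambi (-0.21) met neither condition. There Agr2 fell (-1.76), and Nptx1 (-0.62) and Pgc (-0.56) met neither condition. Agr2, a disulfide isomerase of the endoplasmic reticulum, had 25 UMIs in Mettl14-cKO and 82 in control. The beta-1 adrenergic receptor Adrb1, 15.8-fold over rods, stood at 110 and 119 CPM, and the keratin Krt18 at 219.9 and 214 CPM.

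Cone-enriched genes named from outside the cascade moved both ways, with 2 of 15 higher and 4 lower (median -0.18), against 9.83% and 8.05% of all genes. In rods 5 of 15 were higher and 6 lower (median -0.18), against 11.9% and 10.6% of 13198 genes. Otop3, a proton channel of the otopetrin family, stood at 88.5 CPM in Mettl14-cKO and 43.7 in control (log2 1.02; 0.78 to 1.26), and it rose in each tier. In rods Otop3 stood at 39.5 and 9.23 CPM, a log2 ratio of 2.10. The membrane scaffold Mpp4 stood at 130 and 257 CPM (-0.98), Cnnm4, a metal transporter mutated in human cone-rod dystrophy, at 14.8 and 28.8 (-0.96), and Pex5l at 147 and 239 (-0.71). Mpp4 was also lower in rods (-1.04), but its log2 ratio turned to 0.45 in the low-rod subset.

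Rod cascade genes in these barcodes followed the rods. Of 11 measured, 4 fell and 1 rose (median -0.15), against 8.05% and 9.83% of all genes. Those described here are 3 of the 4 and the 1. The rod phosphodiesterase Pde6b stood at 448 CPM in Mettl14-cKO and 889 in control (-0.99), Gngt1 at 3638 and 6370 (-0.81), and the rod transducin beta subunit Gnb1 at 972 and 1615 (-0.73). The rod transducin alpha subunit Gnat1 stood at 223 and 107 CPM (1.06). In rods the log2 ratios of these 4 genes were -1.06, -1.11, -0.72 and 0.82. The 10 rod markers summed to 15155 CPM in Mettl14-cKO and 21659 in control in cone-gene-positive barcodes, and to 13717 and 21927 in rods, so a rod gene's ratio here was not told apart from the ratio of rod RNA.

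Of 22 photoreceptor transcription factors, 4 rose and 4 fell (median -0.17), against 9.83% and 8.05% of all genes. Rxrg, a retinoid receptor that holds back Opn1sw in mouse cones, stood at 67.4 CPM in Mettl14-cKO and 35.8 in control (0.91), but at 79.7 and 65.1 in the tier of 100 or more (0.29; -0.47 to 1.04). In rods it stood at 53.3 and 16.1 CPM. The homeobox gene Lhx4 stood at 61.5 and 29.5 CPM (1.06), and Onecut2 at 12.2 and 7.56 (0.69). The nuclear receptor Nr2f1 stood at 20.7 and 5.58 CPM (1.89), with 85.1 and 71.4 in amacrine cells; without the Scrublet-marked barcodes its log2 ratio was 1.15. Rora (-0.75), Nr2f2 (-0.69), Isl1 (-0.67) and Prdm1 (-0.59) fell. Without the Scrublet-marked barcodes Isl1 was at -0.25, Nr2f2 at -0.52 and Prdm1 at -0.57, all under 1.5-fold. Rora turned to 0.31 in the low-rod subset, and Lhx4 was at 0.15 there, at the lower counts of that subset. Thrb met neither condition, at 153 CPM in Mettl14-cKO and 189 in control (-0.31; -0.45 to -0.16). Crx stood at 609 and 745 CPM (-0.29), and Otx2 at 517 and 487 (0.09).

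Of 41 cilium and axoneme genes, 13 fell and 3 rose (median -0.41), and rods showed 15 lower and 3 higher of 41 (median -0.43). Of all genes, 8.05% fell and 9.83% rose, and in rods 10.6% and 11.9%. Dynlrb2, a dynein light chain, had 9 UMIs in Mettl14-cKO and 182 in control, a log2 ratio of -3.90 (-5.06 to -2.95). Myo7a, a myosin of photoreceptors and pigment epithelium, stood at 5.35 and 24.5 CPM (-2.19; -1.53 at a threshold of 40 per 10000) and Ccdc39, an axonemal protein, at 9.97 and 25.9 (-1.38). Pigment epithelium markers (7 genes) moved the same way as Myo7a, summing to 17.0 CPM in Mettl14-cKO and 40.5 in control, with 4 and 2 of them at 0. In all kept barcodes they summed to 26.5 and 109 CPM, and their part in the Myo7a ratio was not tested. The tubulins Tubb2b (299 and 87.5 CPM; 1.77) and Tubb4b (587 and 356; 0.72) rose, as did Tulp3 (0.74; 0.32 at a threshold of 40 per 10000). In the tier of 100 or more, 3 of 28 fell and 1 rose (median -0.16), where 5.23% of 4742 genes fell and 5.53% rose. In the low-rod subset none of 14 fell and 3 rose (median -0.09), where 3.26% of 2640 genes fell and 4.73% rose, at counts that left 14 of the 45 listed genes to measure.

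Outer segment and disc genes had 1 of 19 higher and 3 lower (median -0.36), against 9.83% and 8.05% of all genes. Rp1, a microtubule protein of the photoreceptor axoneme, stood at 4131 CPM in Mettl14-cKO and 2604 in control (0.67), and Pcare at 49.9 and 94.5 (-0.92). Pcdh15, a protocadherin of photoreceptors and hair cells, stood at 135 and 203 CPM (-0.59), but at 214 and 201 in the tier of 100 or more (0.09; -0.35 to 0.53), and in rods at 47.8 and 156 (-1.71). Ribbon synapse genes had 1 of 32 higher, Elfn2 (0.71), and 3 lower (median -0.27), against the same shares of all genes. Among the 3 were the calcium channel subunit Cacnb2 (-0.70) and the membrane fusion protein Snap25 (-0.60). At a threshold of 40 per 10000 they were at -0.56 and -0.51, under 1.5-fold, and in the low-rod subset Snap25 was at 0.02.

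Few energy metabolism genes rose or fell, as among all genes, of which 9.83% rose and 8.05% fell. Of 21 glycolytic genes none rose and 2 fell, Aldoc (16.3 CPM in Mettl14-cKO and 44.1 in control; -1.44) and Pfkp (-1.05), with a median of -0.22. At a threshold of 40 per 10000 the Pfkp log2 ratio was -0.53, under 1.5-fold. Thinned to 1500 UMIs, Aldoc was at -0.71 and Pfkp at -0.51. Hexokinase 2 (Hk2), the isoform of photoreceptors, stood at 43.5 and 43.4 CPM (0.01; -0.28 to 0.29), and in rods at 4.37 and 11.8 (-1.43). Of 31 nuclear genes of oxidative phosphorylation, Uqcrfs1 rose (462 and 277 CPM; 0.74) and none fell (median -0.08).

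The p53 target Cdkn1a, an inhibitor of cyclin-dependent kinases, had the highest ratio by the rule for named genes. It stood at 109 CPM in Mettl14-cKO and 8.64 in control, with 447 and 48 UMIs and a log2 ratio of 3.65 (3.22 to 4.11). In rods Cdkn1a stood at 124 and 10.1 CPM, and in the tier of 100 or more it had 14 and 3 UMIs. Among p53 targets, 6 of 19 rose and 2 fell (median 0.14), against 9.83% and 8.05% of all genes. Aen, a nuclease (1.18), and Ddit4, an inhibitor of mTORC1 (0.78), were among the first, and Gadd45a (-0.71) and Sesn1 (-0.62) were the others.

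Of 22 genes of immature photoreceptors and young neurons, 11 rose and 2 fell (median 1.03), against 9.83% and 8.05% of all genes. As with the other lists, this one was chosen with earlier results of these data known, so its shares are a description only. Its log2 ratios reached down to -1.22. Insm2, a zinc finger gene, stood at 50.1 CPM in Mettl14-cKO and 6.30 in control (2.99), Lrtm2 at 27.97 and 3.96 (2.82), and Gdf11, a TGF-beta family ligand, at 28.2 and 4.68 (2.59). In rods 13 of 24 rose and 1 fell (median 0.66), where 11.9% of 13198 genes rose and 10.6% fell. In the tier of 100 or more, 2 of 11 rose and 1 fell (median 0.19), where 5.53% of 4742 genes rose and 5.23% fell. Its low counts left 11 of the 27 listed genes to measure. In the low-rod subset 5 of 10 measured rose and none fell (median 0.56), where 4.73% of 2640 genes rose and 3.26% fell. Progenitor and cycling markers (10 genes) moved the same way, summing to 28.7 CPM in Mettl14-cKO and 14.0 in control, with only Top2a at 0, in control. Their sum was 45.8 and 32.6 CPM in rods and 180.3 and 77.1 in all kept barcodes. In the low-rod subset it was 136 CPM in Mettl14-cKO, with 1 of 10 at 0, while all 10 were at 0 in control. That subset held 323214 UMIs in Mettl14-cKO and 106953 in control, so the numbers of markers at 0 are not directly comparable. The part of progenitor and cycling markers in the ratios of these genes was not tested.

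Of 20 m6A genes, 4 rose and Mettl14 fell (median 0.16). For this and the next lists, the shares of all genes were 9.83% higher and 8.05% lower. The writer complex member Rbm15 stood at 38.2 CPM in Mettl14-cKO and 18.2 in control (1.07), the reader Ythdf2 at 83.2 and 47.7 (0.80) and Igf2bp3 at 33.8 and 20.7 (0.71). Mettl3 stood at 25.8 and 36.9 CPM (-0.52) and the eraser Fto at 71.5 and 97.4 (-0.45). Stress response genes had 2 of 19 higher, among them the chaperone Dnajb1 (0.66), and none lower (median 0.14). Immediate early genes had none of 13 higher and 2 lower, Jun (-1.16) and Klf6 (-0.76), with a median of -0.09. The Jun log2 ratio turned to 0.16 in the low-rod subset.

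**Figure D5:**
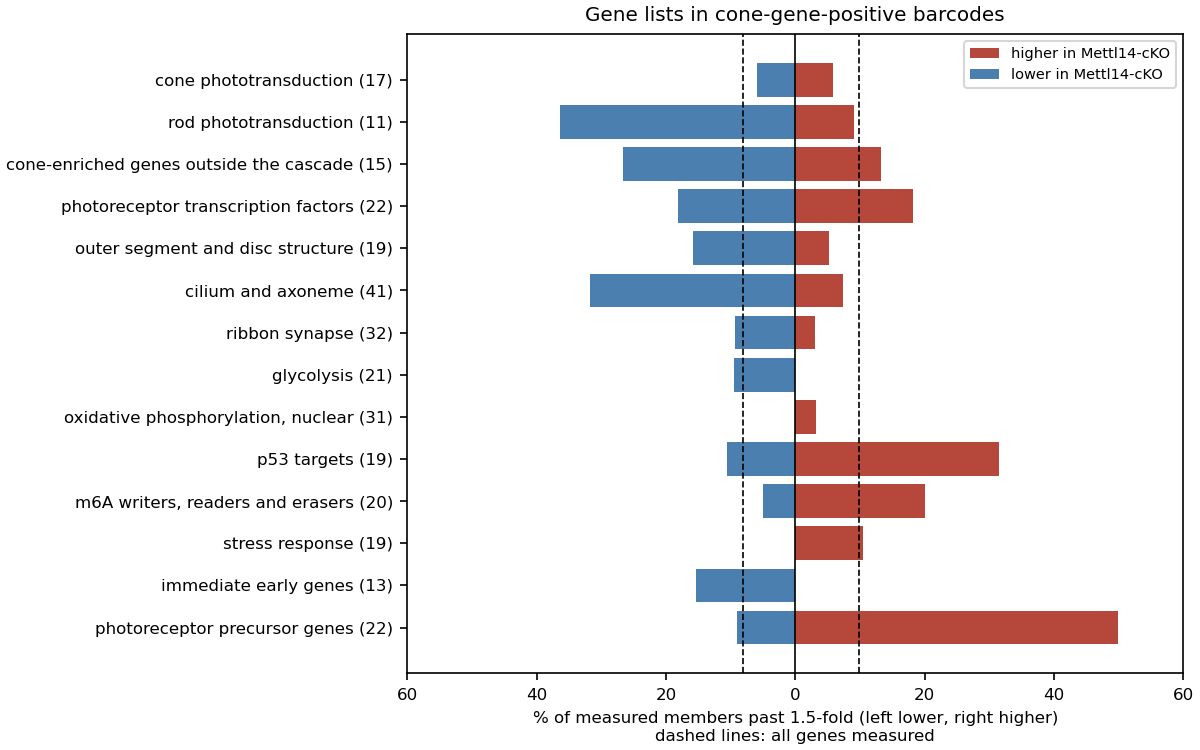
Percent of the measured members of each list (number in brackets; the 4 choice genes left out) that were at least 1.5-fold higher (right) or lower (left) in Mettl14-cKO with an interval that excluded 1, in cone-gene-positive barcodes. Dashed lines mark all genes, 9.83% higher and 8.05% lower. The precursor list reaches 11 of 22 on the right and the cilium list 13 of 41 on the left. The lists were chosen with earlier results of these data known.

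Genes with the highest ratios after Cdkn1a included Kcnb2, a voltage-gated potassium channel (22.6 CPM in Mettl14-cKO and 3.24 in control; 2.80), Gsg1 (43.1 and 8.10; 2.41), the forebrain transcription factor Fezf2 (19.9 and 3.78; 2.40), Enho (124.5 and 23.9; 2.38) and the lactate transporter Slc16a8 (41.4 and 8.46; 2.29). Among genes with UMIs in both libraries, low ratios were those of Trim36 (3.65 and 22.5; -2.62), the metabotropic glutamate receptor Grm7 (5.59 and 19.8; -1.82), Npy (8.27 and 24.1; -1.54) and Gstp1 (33.8 and 98.1; -1.54). The Npy log2 ratio was -0.55 at a threshold of 40 per 10000 and -0.89 without Scrublet-marked barcodes. Gsg1 is also 1 of the 13 bipolar markers whose sums are given below. Gstp1 has a near-identical copy, Gstp2, so its count is uncertain. All 9 genes had ratios of the same sign in rods.

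A few genes had ratios unlike those of rods. Atp1b1, a sodium pump subunit, stood at 31.1 CPM in Mettl14-cKO and 7.20 in control (2.11), against 26.8 and 25.1 in rods (0.10). Gap43, a growth cone protein, stood at 35.0 and 10.6 CPM (1.72), against 36.7 and 29.8 in rods (0.30). Both are high in amacrine cells, at 608 and 726 CPM for Atp1b1 and 662 and 524 for Gap43. Amacrine markers moved the same way, their 10 genes summing to 127 CPM in Mettl14-cKO and 96.3 in control, with only Ptf1a at 0, in control. Without Scrublet-marked barcodes the log2 ratios were 1.26 for Atp1b1 and 1.19 for Gap43. On the other side, the glycogen phosphorylase Pygm stood at 54.2 and 28.6 CPM (0.92) against 25.9 and 4.91 in rods (2.40), and the lysosomal mannosidase Man2b1 at 8.03 and 22.0 (-1.45) against 15.6 and 20.0 (-0.36).

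Markers of other classes gave the setting for these values. Müller glia markers (10 genes) summed to 839 CPM in Mettl14-cKO and 489 in control, with Aqp4 at 0 in Mettl14-cKO. Apoe alone gave 599 and 222 CPM of this, and the other 9 genes summed to 240.1 CPM in Mettl14-cKO and 267 in control. The log2 ratio of Apoe was 1.43, but -0.26 in the low-rod subset. Bipolar markers (13 genes, none at 0) summed to 461 and 378 CPM, and microglia markers (8 genes) to 19.0 and 24.8. In rods the Müller glia sum was 1048 and 772 CPM. Ribosomal protein genes took 10.2% of UMIs in Mettl14-cKO and 9.12% in control, and mitochondrial UMIs 3.11% and 4.13%. The part of these in any gene's ratio was not tested.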

How the data were processed

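Single-cell libraries of P7 mouse retina, 1 per genotype, were made with a 10x Genomics 3′ kit v3.1, per the labels. The deposited matrices hold raw UMI counts of 32285 genes per barcode, without normalization. The authors used Cell Ranger 6.1.1 and the build mm10, per the submitters' processing notes. The libraries held 15319 barcodes (Mettl14-cKO) and 13287 (control), with 59856468 and 55921787 UMIs. Cone-gene-positive barcodes held 4111163 and 5556750 UMIs, which set the intervals.

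UMI sums over the barcodes of a class in a library were put on a scale of 1000000 UMIs (CPM). Levels have exact Poisson intervals, ratios exact conditional intervals and shares Clopper-Pearson intervals, all at 95%, and a share of 0 has a limit of 3 counts of its total; PCR duplicates are collapsed by UMI, so the intervals cover counting error only. Comparison classes met 1 marker rule each: rods as given above, amacrine cells by 2 or more of 5 markers and 20 per 10000 UMIs. The code for the intervals and calls was tested on simulated counts, drawn as Poisson sums over barcodes. This bears on counting error and not on differences between animals or the spread of UMIs between barcodes. Tools were Python 3.11.15, scipy 1.17.1 and scanpy 1.11.5 (Scrublet, at 0.8% per 1000 barcodes). Alternatives used edgeR 4.0.16 TMM and DESeq2 1.42.0 size factors for scaling alone, and thinning.

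Some genes that the rules name are not reported here. The members and gene lists were chosen with earlier results of these data known. Genes were named by rule: the choice genes, Kcne2 and Mettl14; members of the photoreceptor lists; up to 3 highest and 3 lowest of other lists; the 15 highest and lowest ratios and the 20 genes highest over rods, with 100 or more UMIs; and the 8 furthest above and below rods. The 5-fold set over rods, its named genes, and the tiers were chosen after values were seen. Gene positions are those of GENCODE M21 (GRCm38). Sex, batch and reads were not analysed here.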

Additional observations from a re-analysis of the deposited data

Results flagged for a closer look

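Calb2, which encodes the calcium-binding protein calretinin of amacrine and ganglion cells, moved in opposite directions in cone-gene-positive barcodes and in rods. In cone-gene-positive barcodes it stood at 31.1 CPM in Mettl14-cKO and 14.6 in control, a log2 ratio of 1.09 (0.68 to 1.51). In rods it stood at 29.7 and 57.0 CPM, a log2 ratio of -0.94 (-1.10 to -0.79). The difference between the classes was not tested, since each genotype has 1 library. Calb2 was found in 10.8% of Mettl14-cKO and 15.7% of control cone-gene-positive barcodes, so its higher sum in Mettl14-cKO came from fewer barcodes. Without the Scrublet-marked barcodes its log2 ratio was -0.02.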

How the results depend on the processing

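No paired analysis was possible because each genotype has 1 library, and no replicate could be left out. The ratio of shares, the cone cascade median and the Opn1mw ratio kept their direction, both ratios stayed inside their intervals and the counts of genes within 1.5-fold, with a threshold of 40 per 10000, 3 of 4 genes detected, Scrublet-marked barcodes left out, 2000 UMIs per barcode, and TMM or DESeq2 scaling, as did the counts with 10 UMIs per gene. At 40 per 10000, however, 740 genes were higher and 748 lower, so the excess of higher genes was lost. The cone cascade median ranged between -0.20 and -0.068 over the alternatives that gave one. TMM gave 1195 genes higher and 688 lower and DESeq2 factors 1197 and 681 (Opn1mw at -2.04 under both). With rod genes under 20 per 10000 UMIs (68 Mettl14-cKO and 26 control barcodes), the ratio of shares was 2.20, 125 genes were higher and 86 lower of 2640, and the Opn1mw log2 ratio was -0.72; Mpp4 (0.45), Snap25 (0.015), Jun (0.16), Rora (0.31), Apoe (-0.26) and Pcp2 (-1.70) changed sign. Thinned to 1500 UMIs, 343 genes were higher and 362 lower, and Opn1mw was at -1.73. With 100 per 10000 UMIs, chosen after seeing the data, 262 were higher and 248 lower, Opn1mw was at -1.33 and Pcdh15 at 0.092. Without Scrublet-marked barcodes Calb2 was at -0.021. Among ratios of named genes with a value, 64 of 108 left their interval at 100 per 10000, 70 of 85 with low rod genes, 63 of 126 on thinning, 32 of 182 at 40 per 10000, and 0 to 19 of 183 under each other setting. Of the named genes that rose or fell, 12 of 95 came under 1.5-fold at 40 per 10000 (Rp1, 0.54, and Clca1, 0.56, among them), 8 of 95 without Scrublet-marked barcodes (Pcdh15, -0.57), 6 of 95 with TMM and with DESeq2 factors (Sesn1, -0.56), 11 of 57 on thinning (Pygm, 0.41; Pex5l, -0.52), 7 of 40 at 100 per 10000 and 6 of 31 with low rod genes, beside those that changed sign. Fewer UMIs leave fewer genes measured in these subsets, and ratios of single genes there, with their changes of sign, rest on fewer UMIs. Otherwise the cause was not tested.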
